A study of Mus musculus with 112 samples.

Results

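Chromatin-bound long noncoding RNA (lncRNA) of mouse embryonic stem cells was compared between cells in which U1 and U2 small nuclear RNA were targeted together and cells given a scrambled control. The comparison rests on 6 of the 112 samples of the series, taken by their labels: 3 chromatin libraries of cells given an antisense morpholino oligonucleotide (AMO) mix against U1 and U2, and 3 of cells given control AMO. All were 46C cells, a mouse embryonic stem cell line of the 129/Ola strain, kept with leukemia inhibitory factor and harvested 2 h after nucleofection. The U1+U2 mix was given at 50 µM and the control AMO at 75 µM. Whether 50 µM counts each AMO or both is not stated, so the target and the amount of oligonucleotide cannot be told apart in this contrast. Chromatin libraries of cells given U1 AMO alone and U2 AMO alone, 3 each and both at 75 µM, entered the same fit. A further fit of 36 libraries added the cytoplasm and nucleoplasm of these AMO groups. Also set beside them, without a test, were 6 chromatin libraries of a line made from 46C cells. In that line the U1 protein SNRNP70 carries an auxin-inducible degron, and cells were taken before or after 4 h of auxin (IAA). The labels do not say whether replicates were separate cultures, so the p-values reflect spread among these libraries, and that spread may be technical.

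U1 and U2 are the RNA cores of the ribonucleoproteins that recognise an intron's 5′ splice site and its branch point at the start of splicing. U1 also protects nascent transcripts from early cleavage at cryptic polyadenylation signals, a role that does not need U2. An AMO pairs with the part of the small nuclear RNA that contacts the transcript and blocks it without removing it. Many lncRNAs stay near the chromatin on which they are made, among them regulators of imprinted genes and of the X chromosome, while others are spliced, exported and decayed, and some carry small nucleolar RNAs (snoRNAs) or microRNAs within their introns or exons. U1 and U2 themselves are not among the lncRNAs in the table, so the extent of the block is not measured here.

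Of 8 microRNA host lncRNAs tested, 7 fell on chromatin after U1+U2 AMO, against 48.9% of all lncRNAs tested, although none of the 8 was called once each library was centred on its own median. The sequences below show what their transcripts carry. They are mature microRNAs that RefSeq (GRCm38.p6) places within the span of a host that fell, written 5′ to 3′ with the seed, bases 2 to 8, in capitals. Dleu2, the host of the miR-15a and miR-16 cluster, holds a pair with 1 shared seed on the minus strand (chr14:61632075-61632096 and chr14:61631936-61631957). A330023F24Rik holds another pair with a shared seed on the plus strand (chr1:195037091-195037113 and chr1:195037600-195037621). Mir22hg holds miR-22 (chr11:75463772-75463793, plus strand), Mir17hg holds miR-92a (chr14:115044476-115044496, plus strand), Mirg holds miR-410 (chr12:109743764-109743784, plus strand) and Ftx holds miR-374b (chrX:103573112-103573133, minus strand). The mature microRNAs were not measured here, and the values below are those of the host transcripts.
mmu-miR-15a-5p: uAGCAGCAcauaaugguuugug
mmu-miR-16-5p: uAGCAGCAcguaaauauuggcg
mmu-miR-29b-3p: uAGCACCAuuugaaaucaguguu
mmu-miR-29c-3p: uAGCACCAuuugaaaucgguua
mmu-miR-22-3p: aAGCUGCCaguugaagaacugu
mmu-miR-92a-3p: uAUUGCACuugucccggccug
mmu-miR-410-3p: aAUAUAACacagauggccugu
mmu-miR-374b-5p: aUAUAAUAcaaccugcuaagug

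Levels are FPKM (fragments per kilobase, scaled for library size) that the authors scaled to spike-in RNA added to each fraction, for 1279 lncRNAs. Read depth is not given, so the spread between libraries sets the precision. The median lncRNA stood at 1.88 to 2.03 FPKM in the 3 control chromatin libraries and at 0.91 to 1.2 FPKM in the 3 U1+U2 libraries, with no overlap. The markers of the chromatin fraction were mixed. In control cells Neat1, Kcnq1ot1 and Tsix were higher in every chromatin library than in every cytoplasmic one, but Malat1 was not, with 681 to 958 FPKM on chromatin against 1231 to 1499 FPKM in cytoplasm. The embryonic stem cell transcript Lncenc1 stood at 84, 90.0 and 89 FPKM in control chromatin, and 6 of 19 listed lncRNAs of differentiated cells were in the table, their summed level being 34.2 to 43.2 FPKM. Sox2ot, of that list, stood at 11.3, 9.19 and 10.4 FPKM, above the median lncRNA, so the sum is not read as a measure of differentiated cells.

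U1+U2 AMO lowered chromatin levels across much of the lncRNA set. Of 1265 lncRNAs tested, 618 (48.9%) fell and 46 (3.64%) rose by limma on log2(FPKM + 0.15) at an adjusted p under 0.05, which is 52.5% in either direction. With the replicate number as a block, 735 fell and 73 rose. The median difference, U1+U2 minus control, was -0.78 on this log2 scale, on which all differences and folds below are given and which understates the change of low lncRNAs. All 3 U1+U2 libraries lay below all 3 control libraries for 711 lncRNAs (56.2%) and above them for 66 (5.22%). This split rests on the spike-in scaling: once each library was centred on its own median, 187 were higher and 101 lower than control, and the median difference was 0.04. All 46 rises and 101 of the 618 falls were called in both scalings, 517 falls were called in the spike-in scaling alone, and none changed from a called fall to a called rise. In the plot of levels, most lncRNAs lie under the line of equal levels, and the few most abundant lie on both sides of it.

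**Figure D1:**
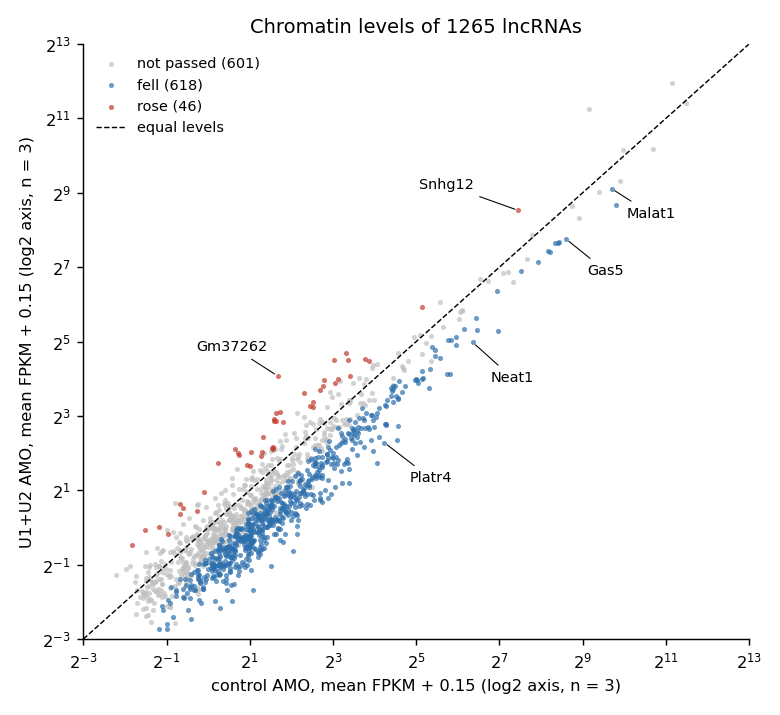
Mean chromatin level of 1265 lncRNAs in control AMO (x axis) and U1+U2 AMO libraries (y axis), FPKM + 0.15 on log2 axes, n = 3 each. Blue points fell (618), red points rose (46), grey points did not pass the test, and the dashed line marks equal levels.

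Among lncRNAs known for staying in the nucleus, 11 of 14 tested fell, 1 rose and 2 did not pass, against 48.9% and 3.64% of all lncRNAs that fell and rose, with a median difference of -1.09. A lncRNA may stand in more than 1 of the lists used here, as microRNA and snoRNA hosts do. Neat1, the scaffold of paraspeckles, stood at 83, 76.2 and 87 FPKM in the control libraries and at 22.4, 37.6 and 34 FPKM in the U1+U2 libraries. It was 2.67-fold lower, a log2 difference of -1.42 ± 0.21 (SE, adjusted p = 0.00026), and it was still called lower after centring, at -0.60 with an adjusted p of 0.0085. Malat1, a transcript of nuclear speckles, went from 958, 681 and 854 FPKM to 525, 563 and 565 FPKM, with no overlap. Its fall was small, -0.58 ± 0.22 (SE, adjusted p = 0.04), and the adjusted p was above 0.05 when any 1 of 5 of the 6 libraries was left out (0.06 without U1+U2 replicate 2, 0.084 without replicate 3, 0.091 without replicate 1, 0.11 without control replicate 3 and 0.13 without control replicate 1). With only the 2 groups compared its adjusted p was 0.11. Centred on library medians it was 0.24 above control, since it fell less than the median lncRNA. Pvt1, the neighbour of Myc, stood at 12.8, 9.18 and 13.2 FPKM in control and 5.15, 5.34 and 5.25 FPKM after U1+U2 AMO, 2.17-fold lower at -1.12 ± 0.17 (SE, adjusted p = 0.00031). Tug1, a broadly expressed lncRNA, had similar levels in both groups, 34.5, 31.3 and 35.5 FPKM against 38, 34.4 and 35 FPKM, with a 95% interval of the difference of -0.22 to 0.39, and so was called higher once the fall of the median lncRNA was taken out (0.90 after centring, adjusted p = 0.0013). After centring, Neat1 and Nespas alone of the 14 nuclear lncRNAs were called lower, and Xist, Meg3 and Rian higher, against 101 lower and 187 higher of all 1265.

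Of 5 imprinted lncRNAs tested, 3 fell, none rose and 2 did not pass, against 48.9% and 3.64% of all lncRNAs that fell and rose. Nespas, the antisense transcript of the Gnas cluster, was the lowest relative to control, at 18.2, 14.8 and 18.2 FPKM in control and 4.8, 5.8 and 5.11 FPKM after U1+U2 AMO, 3.19-fold lower at -1.68 ± 0.15 (SE, adjusted p = 1.9e-05). Kcnq1ot1, which silences the neighbouring genes of the Kcnq1 cluster, went from 5.86, 6.54 and 7.24 FPKM to 2.22, 3.65 and 3.23 FPKM, a difference of -1.10 ± 0.23 (SE, adjusted p = 0.0023). For both of them the groups did not overlap. The 3 lncRNAs of the Dlk1-Dio3 cluster, which are read from 1 strand, did not move alike: Mirg, at its microRNA-bearing end, fell by 1.09 (adjusted p = 0.00065), whereas Meg3 was -0.32 (adjusted p = 0.17) and Rian -0.24 (adjusted p = 0.21). Rian stood at 77.3, 59.3 and 67.5 FPKM in control and 58.2, 55.8 and 58.1 FPKM after U1+U2 AMO. Meg3 passed with the replicate number as a block (adjusted p = 0.035), and after centring both were higher than control, by 0.50 and 0.58. Nespas was still called lower after centring (-0.86). Kcnq1ot1 (-0.28, adjusted p = 0.19) and Mirg (-0.27, adjusted p = 0.38) lost their calls then. The difference between Mirg and its neighbours was not tested.

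Of 4 X-linked lncRNAs tied to X inactivation, Tsix, Ftx and Firre fell and Xist rose, against 48.9% and 3.64% of all lncRNAs. Firre lies far from the other three on the chromosome. Tsix, the antisense repressor of Xist, stood at 9.72, 10.9 and 12.2 FPKM in control and 3.14, 5.05 and 4.28 FPKM after U1+U2 AMO, 2.61-fold lower at -1.38 ± 0.29 (SE, adjusted p = 0.0023). Xist, the lncRNA that coats the inactive X chromosome, stood at 0.17, 0.09 and 0.14 FPKM in control and 0.71, 0.54 and 0.46 FPKM after U1+U2 AMO, a difference of 1.34 ± 0.28 (SE, adjusted p = 0.0021). Its highest library was still below 1 FPKM, near the lowest values of the table. Whether counting separated the strands is not given, so Xist and Tsix, which overlap, may share signal. Ftx fell by 0.99 (adjusted p = 0.01). Firre, which anchors the inactive X near the nucleolus, fell by 0.69 (adjusted p = 0.015), with an adjusted p of 0.052 without U1+U2 replicate 1 and 0.066 without replicate 3. Its centred difference was 0.13 (adjusted p = 0.64). Tsix (-0.56, adjusted p = 0.07) and Ftx (-0.17, adjusted p = 0.64) also lost their calls after centring. Xist was still called higher then (2.16).

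Of 23 lncRNAs of embryonic stem cells tested, 18 fell, none rose and 5 did not pass, with a median difference of -1.15. Of all lncRNAs 48.9% fell, with a median of -0.78. Platr genes, named as pluripotency-associated transcripts, made up 21 of them, and 16 of these fell. Platr4 stood at 20.6, 17.1 and 18.3 FPKM in control and 4.35, 4.9 and 4.88 FPKM after U1+U2 AMO, 3.87-fold lower at -1.95 ± 0.20 (SE, adjusted p = 4.3e-05). Platr14 went from 40.0, 37.7 and 40.6 FPKM to 11.8, 14.1 and 14.3 FPKM, and Platr21 from 4.17, 3.56 and 4.92 FPKM to 0.66, 0.92 and 0.65 FPKM. Their differences were -1.55 ± 0.16 (SE, adjusted p = 4.3e-05) and -2.29 ± 0.26 (SE, adjusted p = 6.3e-05). After centring 5 of the 23 stayed called lower, against 101 of all 1265 lncRNAs. Lncenc1, a highly transcribed lncRNA of naive cells, fell 2.22-fold, from the control levels given above to 34.6, 45.5 and 39 FPKM, at -1.15 ± 0.19 (SE, adjusted p = 0.00055). Of 6 lncRNAs tested from the list for differentiated cells, Sox2ot, Miat and Mir124a-1hg fell and 3 did not pass, which is near the 48.9% of all lncRNAs that fell. Their summed level was 16.9 to 23.7 FPKM after U1+U2 AMO. Sox2ot, a long transcript that spans the Sox2 gene, stood at 11.3, 9.19 and 10.4 FPKM in control and 3.11, 2.56 and 2.75 FPKM after U1+U2 AMO, 3.52-fold lower at -1.82 ± 0.15 (SE, adjusted p = 1.7e-05).

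The microRNA hosts whose products are printed above fell by differing amounts. Dleu2, which carries miR-15a and miR-16, stood at 37, 29.1 and 33.1 FPKM in control and 13.6, 15.8 and 14.2 FPKM after U1+U2 AMO, 2.25-fold lower at -1.17 ± 0.15 (SE, adjusted p = 0.00012). Mir22hg, in which miR-22 lies, went from 5.83, 7.86 and 7.15 FPKM to 1.92, 4.07 and 3.72 FPKM, at -1.12 ± 0.27 (SE, adjusted p = 0.0048). Mir17hg, whose cluster drives cell cycle entry, fell least, from 43.1, 36.5 and 44.6 FPKM to 28.3, 27.8 and 30.3 FPKM. That difference was -0.52 ± 0.15 (SE, adjusted p = 0.013), with an adjusted p of 0.055 without control replicate 3, and 0.30 after centring. A330023F24Rik, with the miR-29b and miR-29c pair, was close to the lowest values, at 0.74, 0.61 and 1.42 FPKM in control and 0.26, 0.33 and 0.13 FPKM after U1+U2 AMO, at -1.42 ± 0.34 (SE, adjusted p = 0.0046). Mirg went from 26.2, 20.7 and 23.4 FPKM to 13.2, 11.7 and 8.4 FPKM, and Mir124a-1hg from 14.2, 12.2 and 9.45 FPKM to 5.55, 6.28 and 5.16 FPKM, a difference of -1.04 ± 0.24 (SE, adjusted p = 0.0033). For all 7 hosts every U1+U2 library lay below every control library, as for 56.2% of all lncRNAs tested. The 7 were called from these same libraries, so this adds no separate support. The list's median was -1.07, and after centring none of the 8 was called in either direction.

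**Figure D2:**
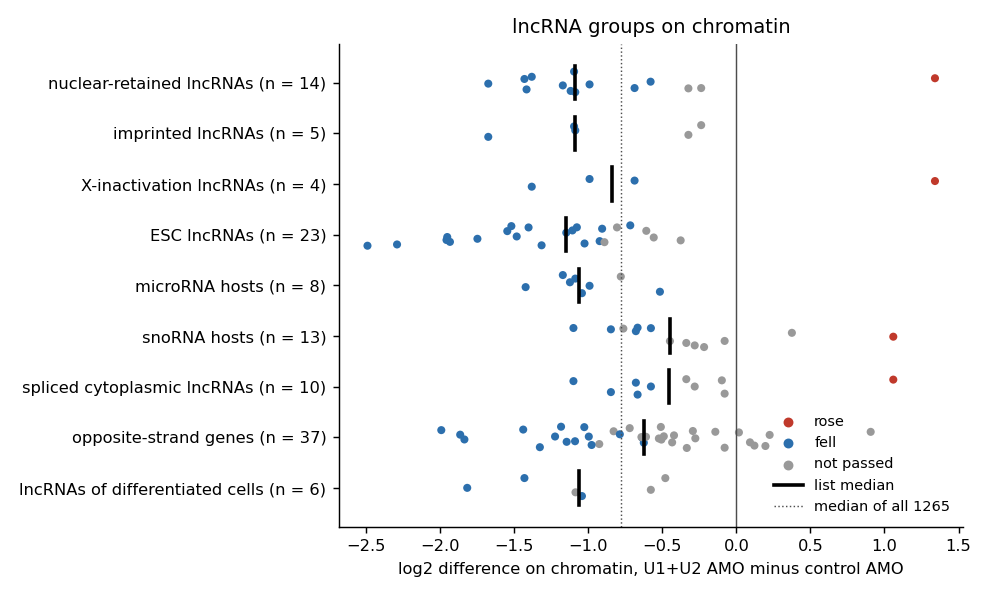
Log2 difference on chromatin, U1+U2 AMO minus control AMO (x axis), of each lncRNA in 9 groups (y axis). Points are lncRNAs, blue where they fell, red where they rose and grey where they did not pass, the thick bar is the group's median, and the dotted line is the median of all 1265, -0.78.

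Opposite-strand lncRNAs, named for the coding gene they run against, had shares near those of all lncRNAs: 15 of 37 tested fell, none rose and 22 did not pass, against 48.9% and 3.64%, with a median of -0.62. Map2k3os had the deepest fall among those named here, from 2.31, 2.51 and 2.3 FPKM to 0.24, 0.53 and 0.81 FPKM, at -1.99 ± 0.33 (SE, adjusted p = 0.00056), and it was still called lower after centring (-1.17, adjusted p = 0.009). Lrrc75aos2 went from 16.7, 13.6 and 12.8 FPKM to 5.57, 7.64 and 5.14 FPKM, at -1.22 ± 0.19 (SE, adjusted p = 0.00043), and was not called after centring (-0.41, adjusted p = 0.12). Where their counts are not split by strand, reads of the partner gene cannot be told apart from theirs.

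Among the deepest falls of lncRNAs with no listed role were those of 2900076A07Rik, C78283 and Gm37795. 2900076A07Rik stood at 10.7, 9.17 and 11.3 FPKM in control and 2.29, 1.97 and 2.16 FPKM after U1+U2 AMO, 4.59-fold lower at -2.20 ± 0.19 (SE, adjusted p = 1.7e-05). Gm37795 went from 28, 18.5 and 23.2 FPKM to 5.65, 3.99 and 5.22 FPKM, at -2.19 ± 0.19 (SE, adjusted p = 1.7e-05). C78283 had a wide control group, 22.3, 10.4 and 16.6 FPKM, and lay at 2.88, 3.02 and 3.65 FPKM after U1+U2 AMO, at -2.25 ± 0.26 (SE, adjusted p = 6.2e-05). Among called lncRNAs without overlap whose mean level was at or above the median, the other 8 of the 12 largest falls were 8430429K09Rik, Gm19325, Gm27010, 2500002B13Rik, BX649560.1, Gm37144, Gm11457 and Gm13663, and their differences ran from -2.25 in Gm11457 to -2.0 in Gm37144. Of the 12, which included Platr21, all but Gm11457 and Gm13663 were still called lower after centring.

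Few lncRNAs rose, and most of those that did were unnamed Gm loci: 38 of the 46, against 820 of the 1265 tested. Gm37262 rose most, from 2.71, 2.49 and 3.9 FPKM to 12.5, 16.4 and 21.3 FPKM, 5.27-fold higher at 2.40 ± 0.24 (SE, adjusted p = 4.3e-05). Gm44045 stood at 8.05, 7.98 and 7.87 FPKM in control and 17.8, 25.5 and 24 FPKM after U1+U2 AMO, at 1.46 ± 0.19 (SE, adjusted p = 0.00012), and Gm28791 went from 8.61, 10.1 and 10.8 FPKM to 20.7, 27.1 and 29.6 FPKM, at 1.37 ± 0.20 (SE, adjusted p = 0.00024). None of these groups overlapped. Gm44130, Gm45354, Gm42866, Gm37115, Gm43313, Gm43178, Gm37531, Gm45477 and Gm24362 completed the 12 largest rises among called lncRNAs without overlap whose mean level was at or above the median, with differences from 1.5 in Gm44130 down to 1.24 in Gm24362. All 12 kept their call after centring and with each control or U1+U2 chromatin library left out in turn.

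The rises were not limited to chromatin. Of the 46 lncRNAs that rose there, 44 had every U1+U2 nucleoplasm library above every control one and 35 had the same in cytoplasm, against 13.6% and 9.57% of all 1265, and none lay below control in either fraction. These fractions come from other libraries than the chromatin ones, but fractions with the same replicate number may come from the same cells. Their likeness is therefore not counted as independent replication. Gm37262 stood at 0.47, 0.18 and 0.21 FPKM in control nucleoplasm and 4.3, 4.93 and 4.92 FPKM after U1+U2 AMO, and its cytoplasmic levels were 0.88, 0.23 and 0.45 FPKM against 3.36, 4.68 and 5.92 FPKM. The median difference of the 46 was 1.55 in nucleoplasm and 1.05 in cytoplasm. Of the 618 that fell, 213 were lower without overlap in nucleoplasm and 224 in cytoplasm, against 18.6% and 22.1% of all 1265, while 19 and 13 were higher.

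Snhg12, a host of 4 annotated snoRNAs, rose while most of the snoRNA hosts that passed fell. Of 13 hosts tested, 5 fell (Gas5, Snhg5, Snhg6, Snhg8 and Dancr), Snhg12 rose and 7 did not pass, against 48.9% and 3.64% of all lncRNAs, with a median difference of -0.45. After centring none of the 13 was called lower, Snhg6 being at -0.28 (adjusted p = 0.25), and Snhg20 joined Snhg12 as higher, at 1.19 (adjusted p = 0.0077). Of all 1265 lncRNAs, 101 were then called lower and 187 higher. Snhg12 stood at 186, 174 and 166 FPKM in control and 431, 327 and 347 FPKM after U1+U2 AMO, 2.08-fold higher at 1.06 ± 0.19 (SE, adjusted p = 0.001), and was 1.88 higher after centring. Gas5, a host whose spliced RNA decays on translation, went from 425, 382 and 358 FPKM to 222, 228 and 197 FPKM, 1.8-fold lower at -0.85 ± 0.19 (SE, adjusted p = 0.0035). Snhg6 went from 25.2, 20.6 and 24.4 FPKM to 12.2, 9.47 and 10.9 FPKM, at -1.10 ± 0.17 (SE, adjusted p = 0.00033). Snhg8 and Snhg5 fell by 0.67 (adjusted p = 0.0047) and 0.58 (adjusted p = 0.01). Dancr, which is also a snoRNA host, overlapped between groups, at 29.9, 21.9 and 19.4 FPKM against 20.3, 14.5 and 10.3 FPKM, and its call at -0.68 ± 0.25 (SE, adjusted p = 0.036) was lost without U1+U2 replicate 2 (adjusted p = 0.066), U1+U2 replicate 3 (0.16), control replicate 1 (0.15) or control replicate 2 (0.058), with no trend (0.054) and with only the 2 groups compared (0.062). The Gas5 fall was no deeper than the shift of the median lncRNA, since its centred difference was -0.03 (adjusted p = 0.93). Centred on library medians, Snhg5, Snhg8 and Dancr were 0.24, 0.15 and 0.14 above control. Of the 7 hosts that did not pass, Snhg15, at -0.45 (adjusted p = 0.065), passed without U1+U2 replicate 1 (adjusted p = 0.02) and with the replicate number as a block (0.0098).

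The same hosts separated the U1+U2 group from cells given U2 AMO alone. Of the 13, 8 were lower after U1+U2 AMO than after U2 AMO, against 34.9% of all lncRNAs, and none was higher, against 3.95%. After centring Snhg20 was called higher than after U2 AMO (0.88, adjusted p = 0.037). Snhg1, a host with 8 annotated snoRNAs, stood at 509.8, 509 and 532 FPKM after U2 AMO and 129, 105 and 118 FPKM after U1+U2 AMO, 4.4-fold lower at -2.14 ± 0.17 (SE, adjusted p = 1.4e-05). Its control libraries, 155, 136 and 154 FPKM, lay just above the U1+U2 ones, and that difference of -0.34 did not pass (adjusted p = 0.11, and 0.015 with the replicate number as a block). Gas5 stood at 874, 979 and 742 FPKM after U2 AMO, and U1+U2 AMO left it 3.99-fold lower at -2.0 ± 0.19 (SE, adjusted p = 2.7e-05). For both hosts every U1+U2 library lay below every control library, and every U2 library above them. Snhg3, Snhg6, Snhg8, Snhg15 and Snhg17 were also lower than after U2 AMO, by differences of -1.0, -1.30, -0.73, -0.86 and -0.93, but after centring Snhg6 alone of these 5 kept its call. Snhg5 was -0.48 (adjusted p = 0.034), which was lost with only the 2 groups compared (0.086) and without any 1 of 5 libraries (adjusted p from 0.056 without U1+U2 replicate 2 to 0.11 without U2 replicate 2, and also without U1+U2 replicate 1 or 3 or U2 replicate 3), and 0.10 after centring. Snhg12 stood apart from these: it was 436, 358 and 356 FPKM after U2 AMO, with a difference of -0.06 from U1+U2 AMO and a 95% interval of -0.48 to 0.35 (0.52 after centring).

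**Figure D3:**
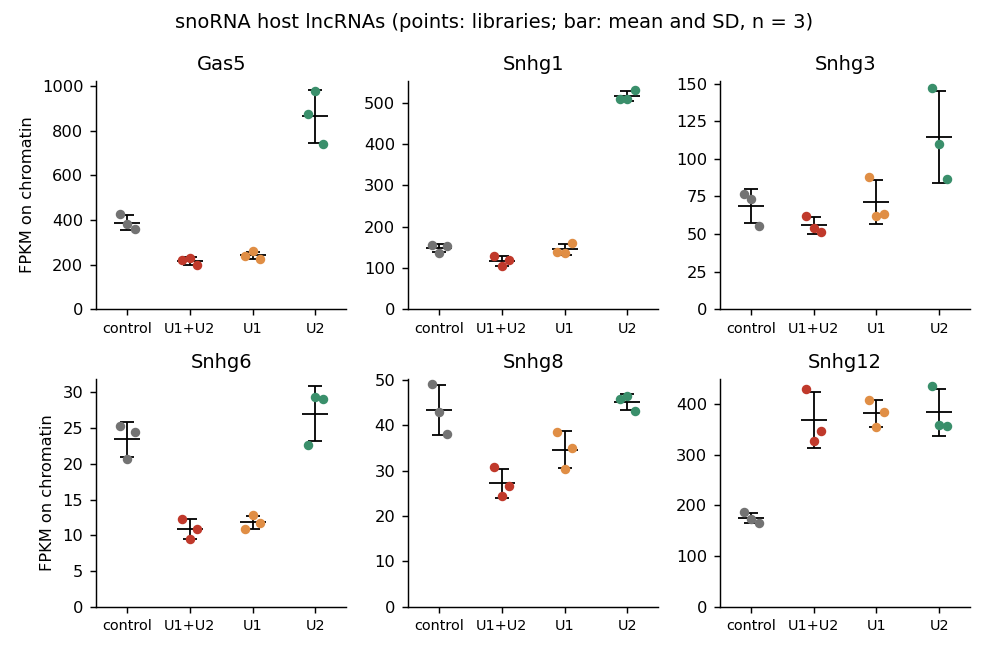
Chromatin level (FPKM, y axis from 0) of 6 snoRNA host lncRNAs in control, U1+U2, U1 and U2 AMO libraries (x axis). Points are single libraries and the bar is the mean with its SD (n = 3): Gas5 and Snhg1 are highest after U2 AMO, and Snhg12 is above control in all 3 AMO groups.

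Over all lncRNAs, 491 of 1265 (38.8%) differed between U1+U2 and U2 AMO: 50 were higher (3.95%) and 441 lower (34.9%) after U1+U2 AMO, with a median difference of -0.59. Doses differed, 50 µM against 75 µM, so the added target and the dose cannot be told apart here. Without U2 replicate 2 there were 317 calls. The higher calls numbered 24 without U1+U2 replicate 3, 26 without U1+U2 replicate 2, 32 without U2 replicate 3 and 29 with only the 2 groups compared, and centring on library medians gave 165 higher and 123 lower. Gm45073 differed most, at 4.55, 5.63 and 5.11 FPKM after U2 AMO and 0.44, 0.53 and 0.36 FPKM after U1+U2 AMO, 8.87-fold lower at -3.15 ± 0.27 (SE, adjusted p = 1.4e-05). Gm15344 stood at 41.3, 48.6 and 30.7 FPKM against 8.36, 8.49 and 5.67 FPKM, at -2.39 ± 0.21 (SE, adjusted p = 1.5e-05), and Gm37786, Gm42793 and Gm37566 were lower by differences of -2.67, -2.40 and -2.38. Among the regulators named above, Tsix stood at 8.73, 16.5 and 14 FPKM after U2 AMO and was lower after U1+U2 AMO by a difference of -1.60 ± 0.29 (SE, adjusted p = 0.0015). Sox2ot and Nespas were lower too, at -1.69 and -1.17. The largest differences upward were in Gm37285, at 1.11, 1.55 and 1.68 FPKM after U2 AMO and 3.19, 4.71 and 3.84 FPKM after U1+U2 AMO, 1.35 ± 0.24 (SE, adjusted p = 0.0012), and in Gm37262, at 1.29 ± 0.24 (SE, adjusted p = 0.0018). Gm44045 was 1.16 higher. Gm42866 and Tmem250-ps, at 1.33 and 1.17, lost their calls without U1+U2 replicate 2 (adjusted p = 0.059 and 0.053), Gm42866 also without U1+U2 replicate 3 (0.061) or U2 replicate 1 (0.055) or with only the 2 groups compared (0.059), and Tmem250-ps without U2 replicate 3 (0.06).

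Against U1 AMO alone, no difference passed. None of the 1265 lncRNAs differed by limma at an adjusted p under 0.05, the smallest adjusted p was 0.90, and 46 (3.64%) had an unadjusted p under 0.05, 28 higher (2.21%) and 18 lower (1.42%) after U1+U2 AMO. The median difference was 0.02, and the 5th and 95th percentiles of the differences were -0.47 and 0.52. This does not show that the treatments act alike, and the doses differed, 50 µM against 75 µM. The 95% interval of the difference spanned a median of 0.64 to either side, and it lay within 1 log2 unit of zero for 843 lncRNAs (66.6%), so for the other lncRNAs a difference of 2-fold was within the interval. Gas5 stood at 236, 259.8 and 226 FPKM after U1 AMO, with an interval of the difference of -0.58 to 0.26. Snhg1 stood at 138, 137 and 160.4 FPKM, with an interval of -0.67 to 0.06, and Neat1 at 32.5, 33 and 39.5 FPKM, with -0.63 to 0.26. The smallest unadjusted p belonged to Gm15903 and Gm43803, which were chosen after their values were seen. Gm15903 stood at 1.2, 0.68 and 0.79 FPKM after U1 AMO and 1.93, 1.9 and 3.74 FPKM after U1+U2 AMO, and Gm43803 at 6.96, 7.5 and 5.52 FPKM and 9.29, 10.6 and 10.9 FPKM, without overlap in either. In the plot of the 3 comparisons the differences from U1 AMO centre on zero, while those from control and from U2 AMO lie to the left of it.

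**Figure D4:**
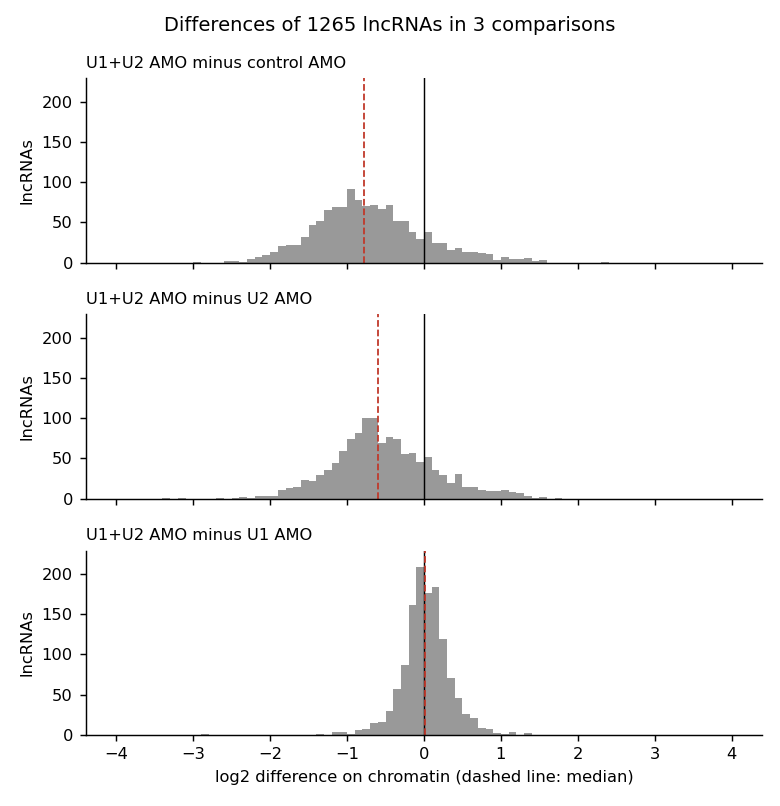
Number of lncRNAs (y axis) by log2 difference on chromatin (x axis) for U1+U2 AMO minus control, minus U2 and minus U1 AMO, 1265 lncRNAs in each. The dashed line is the median, -0.78, -0.59 and 0.02 in that order.

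Whether the change on chromatin differed from that in the soluble fractions was tested by the chromatin shift, the log2 change there less the average of those in cytoplasm and in nucleoplasm, in 1 fit of 36 libraries. Of 1277 lncRNAs tested, 78 (6.11%) shifted away from chromatin, and none shifted towards it at an adjusted p under 0.05, with 1 (0.0783%) at an unadjusted p under 0.05 and 315 (24.7%) in the other direction. Of the 78, 60 fell on chromatin, 4 rose there and 14 had no call there. Of the 1265 lncRNAs tested on chromatin, 48.9% fell and 3.64% rose. The median difference of the 78 was -1.20 on chromatin, 0.33 in cytoplasm and 0.14 in nucleoplasm, against -0.77, -0.29 and -0.13 for all 1277. The 78 were selected on these same values, so these counts and medians largely follow from the selection and are no separate support. The count of 78 was fragile. It was 6 without control chromatin replicate 3, 30 without control chromatin replicate 1 and 33 without U1+U2 chromatin replicate 1. With the replicate number as a block it was 119, and centring on library medians left 4 away and 11 towards chromatin. No cytoplasm or nucleoplasm library was left out, so how far the shifts rest on single soluble libraries was not tested. In bulk fractions a lower level on chromatin and fewer cells holding the RNA cannot be told apart.

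Gm28373 had the largest shift among the lncRNAs chosen by the naming rule. It stood at 9.8, 8.39 and 9.36 FPKM on control chromatin and 5.04, 5.02 and 6.14 FPKM after U1+U2 AMO, while its cytoplasmic level went from 1.6, 0.88 and 1.05 FPKM to 9.56, 4.22 and 5.6 FPKM. Its shift was -2.52 ± 0.36 (SE, adjusted p = 5.8e-05) and kept its call after centring, whereas its change on chromatin alone was then 0.066 (adjusted p = 0.78). C230096K16Rik stood at 20.4, 17.4 and 18.9 FPKM on control chromatin against 6.29, 7.79 and 6.14 FPKM, and at 5.22, 5.68 and 7.14 FPKM in control cytoplasm against 9.65, 7.31 and 7.54 FPKM. Its shift was -1.79 ± 0.27 (SE, adjusted p = 0.00014). In cytoplasm C78283 stood at 17.8, 16.2 and 28.4 FPKM in control and 17.7, 13.4 and 16.9 FPKM after U1+U2 AMO, and Gm42783 at 3.39, 2.5 and 2.22 FPKM and 3.05, 3.68 and 3.56 FPKM. Their chromatin levels did not overlap between groups, and their shifts were -1.72 ± 0.39 (SE, adjusted p = 0.014) and -1.75 ± 0.47 (SE, adjusted p = 0.022). ENSMUSG00000104056.1, which has no symbol in the tables used here, stood at 3.45, 2.47 and 3.82 FPKM on control chromatin against 0.71, 0.55 and 1.53 FPKM, and was listed at 0, 0.52 and 0 FPKM in control cytoplasm against 0.23, 0.43 and 1.06 FPKM. Its shift was -2.39 ± 0.62 (SE, adjusted p = 0.02). The calls of C78283, Gm42783 and ENSMUSG00000104056.1 were lost without control replicate 1 (adjusted p = 0.057, 0.059 and 0.058) and control replicate 3 (0.06, 0.08 and 0.072). Gm42783 and ENSMUSG00000104056.1 also lost them without U1+U2 replicate 1 (0.074 for each), and ENSMUSG00000104056.1 without U1+U2 replicate 2 (0.058). After centring none of these 3 passed (adjusted p = 0.32, 0.32 and 0.27), nor did Gm42783 and ENSMUSG00000104056.1 at a pseudocount of 0.015 (0.06 and 0.092).

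Larger or known members of the 78 were named after their values were seen. Gm42929 had no chromatin call, at 5.22, 6.95 and 6.22 FPKM against 3.36, 5.34 and 4.77 FPKM, but its cytoplasmic level went from 1.2, 2.73 and 1.08 FPKM to 12.4, 14.7 and 19.8 FPKM, a shift of -3.03 ± 0.41 (SE, adjusted p = 5.1e-05). D530018E20Rik likewise had overlapping chromatin libraries, at 11.1, 9.57 and 10.7 FPKM against 9.94, 9.55 and 11.6 FPKM, with cytoplasm at 0.47, 0.82 and 0.39 FPKM against 3.78, 2.17 and 4.85 FPKM and a shift of -1.80 ± 0.36 (SE, adjusted p = 0.0075). Neat1 stood at 16.9, 15.2 and 14.8 FPKM in control cytoplasm and 15.8, 17.7 and 25.8 FPKM after U1+U2 AMO, so that its chromatin and cytoplasmic libraries overlapped after U1+U2 AMO but not in control. Its shift was -1.34 ± 0.32 (SE, adjusted p = 0.017), with an adjusted p of 0.074 without U1+U2 replicate 1 and 0.066 without control replicate 3. Dancr went from 19.2, 19.7 and 15.9 FPKM to 51.6, 38.8 and 31.3 FPKM in cytoplasm, a shift of -1.49 ± 0.42 (SE, adjusted p = 0.031). That call, and that of Pvt1 at -1.10 (adjusted p = 0.039), were lost without U1+U2 replicate 2 or 3 or control replicate 1 or 3, with adjusted p of 0.054 to 0.12, and for Pvt1 also without U1+U2 replicate 1 or at a pseudocount of 0.015 (0.055). After centring Gm42929 kept its call, and D530018E20Rik (adjusted p = 0.085), Neat1 (0.4), Dancr (0.42) and Pvt1 (0.66) lost theirs.

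**Figure D5:**
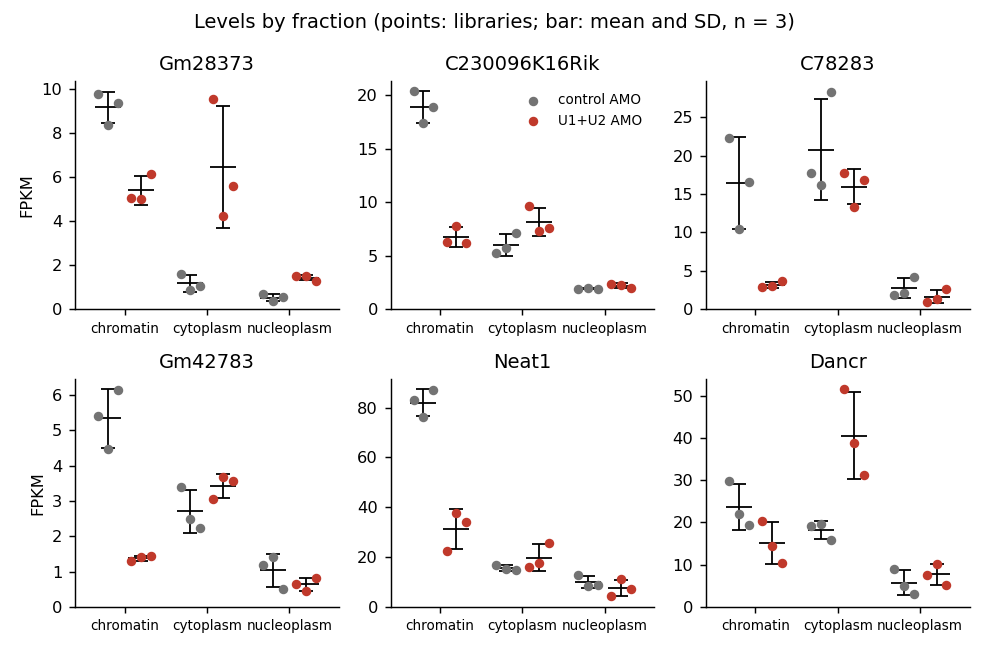
Level (FPKM, y axis from 0) of 6 lncRNAs on chromatin, in cytoplasm and in nucleoplasm (x axis), in control (grey) and U1+U2 AMO (red) libraries. Points are single libraries and the bar is the mean with its SD (n = 3): Gm28373 is lower on chromatin and higher in cytoplasm after U1+U2 AMO, and the chromatin groups of Dancr overlap.

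A line made from 46C cells carries SNRNP70, a protein of the U1 ribonucleoprotein, with an auxin-inducible degron. Whether the line is 1 clone is not given in the labels. Its 6 chromatin libraries, 3 before and 3 after 4 h of auxin (IAA), come from another table, so their values are set beside the AMO values without a test. Of the same 1265 lncRNAs, 661 (52.3%) were lower at 4 h than at 0 h in all libraries and 55 (4.35%) higher, with a median difference of -0.62. Of the 618 lncRNAs that fell after U1+U2 AMO, 438 (70.9%) were lower at 4 h without overlap and 12 higher. Of the 46 that rose, 14 (30.4%) were higher at 4 h and 3 lower. Across the 1265 lncRNAs the differences in the 2 systems had a Pearson correlation of 0.47 and a Spearman correlation of 0.48, given as a description over lncRNAs, which are not independent replicates. Platr4 stood at 44.4, 31.4 and 30.1 FPKM at 0 h and 6.66, 4.73 and 3.66 FPKM at 4 h, and Nespas at 26.1, 24.9 and 21.7 FPKM and 7.3, 5.65 and 5.13 FPKM, both lower without overlap. Snhg12 was higher there as well, at 134, 118 and 137 FPKM and 333, 320.1 and 309 FPKM. Gas5 was not lower in the degron line, at 284, 246 and 316 FPKM at 0 h and 339, 297 and 348 FPKM at 4 h, and Mir17hg overlapped, at 27.2, 22.2 and 28 FPKM and 26.5, 25.8 and 24.1 FPKM.

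Some abundant entries varied widely within groups or overlapped between them. AY036118 stood at 71, 402 and 1246 FPKM in control and 140.0, 208 and 6914 FPKM after U1+U2 AMO, with a 95% interval of the difference of -3.28 to 4.94. Gm42418 stood at 2753, 3333 and 2502 FPKM against 2538, 3320.3 and 2295 FPKM, and neither passed. Gm26870 and Hist2h2bb, a histone gene entry, did not pass either, at -0.10 ± 0.40 (SE, adjusted p = 0.84) and -0.04 ± 0.21 (SE, adjusted p = 0.88), and their groups overlapped. After centring Hist2h2bb was called higher than control (0.78, adjusted p = 0.024). AY036118, Gm42418 and Gm26870 were not called then (adjusted p = 0.58, 0.10 and 0.21).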

How the data were processed

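Strand-specific libraries of ribosomal RNA-depleted RNA were made from cytoplasm, nucleoplasm and chromatin, with spike-in RNA added, per the labels' protocols. The submitters' processing notes name CASAVA, TopHat, Cufflinks and mm10, without versions. The deposited values are FPKM that the authors scaled to spike-in RNA, per the file headers. Sources used here give neither read depth nor whether counting used strand.

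Of 1282 rows in each table, 3 that share an identifier were left out. A table of IDs and symbols named 1172 IDs exactly and 89 once the version was dropped, and 18 stayed unnamed. Not used were 12 columns of the AMO table and 18 of the degron table. Values were taken as log2(FPKM + 0.15), 0.15 being the 10th percentile of values above 0. A lncRNA was tested where at least 3 libraries reached 0.15. Fits used limma 3.58.1 in R 4.3.3 with a mean-variance trend, on 12 chromatin libraries or, for the chromatin shift, 36 libraries, and p-values were adjusted by Benjamini and Hochberg over all lncRNAs tested. The fits were run on simulated data with known changes. Those libraries were drawn independently and without scaling error, so that check does not cover likeness between same-numbered libraries or the spike-in scaling. Alternatives were 2 other pseudocounts (1 and 0.015), no filter, centring on library medians, the replicate number as a block and no trend. Each chromatin library of the groups compared was also left out in turn. For the chromatin shift no cytoplasm or nucleoplasm library was left out. A fit of only the 2 groups compared was run for the other comparisons.

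Lists and named lncRNAs were chosen with earlier results of these data known. Named were the 12 largest rises and falls on chromatin (5 in each other comparison) among called lncRNAs without overlap and with a mean level at or above the median. Up to 4 called members of each list were named too. A standing set, among it Malat1, Meg3, Rian, Tug1, Snhg1, Dancr, Gm26870, Gm42418, AY036118 and Hist2h2bb, was named whether it passed or not. Further list members, such as Snhg5, Snhg15 and Mir17hg, were added outside these rules, as were entries the text says were chosen later. Libraries with the same replicate number resembled each other, though the labels do not say why. Deviations of U1+U2 and control libraries from their group means correlated at 0.39, 0.27 and 0.48 for the same number. Those with different numbers correlated at -0.34 to -0.01, and since deviations were taken from group means, these negative values follow from the positive ones. The main fits did not use replicate numbers, and the block was run as an alternative. RefSeq symbols (GRCm38.p6) matched 451 of the 1265 lncRNAs, 35.7%, and 7 of the 46 rises, so no check of length or exon number was made, and lists by exon number or length were not run.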

Additional observations from a re-analysis of the deposited data

Results flagged for a closer look

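The change on chromatin differed, by a test of the difference itself (limma, adjusted over 1277 lncRNAs), from the change in the soluble fractions for 5 lncRNAs chosen by the naming rule. The difference, on the log2 scale, was -2.52 in Gm28373, -2.39 in ENSMUSG00000104056.1, -1.79 in C230096K16Rik, -1.75 in Gm42783 and -1.72 in C78283. Gm28373 and C230096K16Rik kept their calls with each control or U1+U2 chromatin library left out, and after centring. Libraries of the soluble fractions were not left out. The other three lost theirs without some single libraries and after centring (adjusted p = 0.27 for ENSMUSG00000104056.1, 0.32 for Gm42783 and 0.32 for C78283), and ENSMUSG00000104056.1 and Gm42783 also at a pseudocount of 0.015 (0.092 and 0.06).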

How the results depend on the processing

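Pseudocounts, the filter and the trend moved the calls on chromatin by less than 1.5 times, and no difference from U1 AMO was called under any alternative run. Centring on library medians left 288 calls against control and 288 against U2 AMO. Leaving out 1 library gave 543 to 663 calls against control and 317 to 511 against U2 AMO. The chromatin shift had 244 calls with a pseudocount of 1, 48 with 0.015, 15 after centring and 119 with the replicate number as a block. It had 6 to 71 with 1 control or U1+U2 chromatin library left out. With the block there were 808 calls against control and 648 against U2 AMO. Among the named lncRNAs the block changed 4 calls, Meg3, Snhg1 and Snhg15 against control and 1110038B12Rik against U2 AMO (-0.98, adjusted p = 0.00022 against 0.068 without it), and it changed no other call. Over 1316 values of named lncRNAs under alternatives, 1202 kept direction and side of the threshold. With direction kept, 78 lost the call and 8 gained it. The other 28 changed sign, and some of these changed call as well. Meg3, Rian and Hist2h2bb were called higher than control after centring (adjusted p = 0.010, 0.019 and 0.024). Among the lncRNAs that changed sign, Malat1, Firre, Dancr, Snhg5, Snhg8 and Mir17hg were some that lost their calls against control with it. After centring these were above control: Gm28373 (0.066), Snhg8 (0.15), Firre (0.13), Malat1 (0.24), Meg3 (0.50), Rian (0.58), Snhg1 (0.48), Dancr (0.14), Gm26870 (0.72), Gm42418 (0.74), Hist2h2bb (0.78), Snhg5 (0.24), Snhg15 (0.37), Snhg17 (0.60) and Mir17hg (0.30). Snhg5 (0.10) and Snhg12 (0.52) were then above U2 AMO. The other sign changes came without 1 library, in differences that had not passed: Gm26870 ran from -0.45 without U1+U2 replicate 2 to 0.27 without control replicate 1 (0.12 and 0.02 without U1+U2 replicate 1 or 3). Gm42418 ran from -0.24 without U1+U2 replicate 2 to 0.033 without control replicate 2 (0.030 without U1+U2 replicate 3). AY036118 ran from -0.95 without U1+U2 replicate 3 to 1.86 without U1+U2 replicate 1 (-0.27 without control replicate 1). Hist2h2bb ran from -0.19 without control replicate 2 to 0.20 without control replicate 1 (0.03 without U1+U2 replicate 2). Snhg12 against U2 AMO ran from -0.18 without U1+U2 replicate 1 to 0.033 without U2 replicate 1 (0.02 without U1+U2 replicate 2). Apart from what centring does by construction, the cause was not tested. Read depth is not given, so a limit of detection cannot be set, and Gm11457, with an adjusted p of 0.087 at a pseudocount of 0.015, shows how the lowest values depend on it.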
